A study of Zea mays with 12 samples.

Results

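RNA of maize endosperm from both reciprocal hybrids of the inbred lines B73 and Mo17 was set against RNA of both inbreds. The members were all 12 arrays of the series: 6 hybrid arrays, 3 of B73xMo17 and 3 of Mo17xB73, against 6 inbred arrays, 3 of B73 and 3 of Mo17. The plants were field grown and hand pollinated, and the endosperm was taken 13 days after pollination. Each array measured RNA pooled from kernels of 6 ears. The labels give 6 kernels per ear in one place, which makes 36 in a pool, and 5 in another. The crosses of the 4 genotypes were repeated on 3 dates, and within a date they were made within 30 minutes of each other, so the replicate number pairs the arrays. All 4 genotypes shared tissue, stage and treatment and carried no transgene or mutation that the labels name. Expression was measured on a 3' Affymetrix maize array with 17734 probe sets, each a group of short probes for a transcript.

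Endosperm is the triploid seed tissue that stores starch and zein protein for the seedling. It receives 2 maternal genome copies and 1 paternal copy. With the mother written first, as is usual for crosses, B73xMo17 endosperm has 2 B73 copies and 1 Mo17 copy, and Mo17xB73 has the reverse. The hybrid pair and the inbred pair therefore hold the same number of B73 and Mo17 copies in sum, whichever parent is written first. If each copy made as much RNA in a hybrid as in its inbred, and signal were proportional to RNA, the hybrids would sum to the inbreds on the linear scale. The mean of their log2 signals would still be above that of the inbreds wherever B73 and Mo17 differ, because the log of a mixture is above the mean of the logs. Hybrid minus inbred was therefore taken in 2 ways: as the mean log2 signal of both hybrids minus that of both inbreds, and as the log2 ratio of the hybrids' summed linear signals over the inbreds' sum. The first is the log-scale difference and the second the linear-scale ratio below. In a 2 by 2 layout of mothers and fathers, the first is proportional to the interaction of mother and father, with its sign turned. Its contrast is orthogonal to that of B73 minus Mo17, but its size can still depend on how far apart the inbreds are.

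The signals were the authors' MAS5 values, brought to a common array median here. Before this scaling the array medians gave hybrids a level 0.15 log2 below that of inbreds (-0.151), and replicates 1 and 2 of B73xMo17 were the dimmest. Those 2 arrays were multiplied by 1.25 and 1.3, and the other 10 by 0.891 to 1.06. After scaling, the hybridization spike-in controls differed by -0.035 and the poly-A spike-in controls by 0.075 log2 between hybrids and inbreds. Arrays of the same date deviated together (mean correlation 0.398 over 18 same-date pairs, from 0.247 to 0.595). Zeins and basal transfer layer genes, which mark endosperm, had larger summed signals than green tissue markers on every array. Zeins summed to 24410 to 86810 over the hybrid arrays, against 13700 to 83060 over the inbred arrays, and basal transfer layer genes to 5465 to 38830 against 5840 to 35480. Aleurone genes summed to 422.0 to 707 against 412 to 665, which overlaps the green tissue sums. Embryo surrounding region genes summed to 138.5 to 1008 against 60.9 to 1223. Embryo and late seed genes, which are not endosperm markers, summed to 3881 to 5905 against 4184 to 5245. Green tissue markers summed to 283 to 560.3 against 381 to 621, and 4 of 8 were at the floor on every array. In pooled tissue, fewer cells of a type and less RNA per cell cannot be told apart.

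On the log scale, hybrid endosperm was called above the inbred mean at more probe sets, and by larger amounts, than below it. Of 10670 tested probe sets, 739 (6.93%) were called higher in hybrids and 245 (2.3%) lower (limma with crossing date as a block, Benjamini-Hochberg adjusted p under 0.05 over all tested probe sets, here called). The higher calls had a median log2 difference of 0.62 and reached 4.0, and 183 of them were at least 2-fold. The lower calls had a median of -0.25 and reached -0.83, and 0 of them were 2-fold. Over all tested probe sets the median log2 difference was 0.0054, with quartiles of -0.072 and 0.098. The inbreds were further apart than the hybrids and inbreds: B73 minus Mo17 was called at 63.2% of the probe sets and B73xMo17 minus Mo17xB73 at 44.6%. At 74 of the 739 higher calls 1 inbred was at the signal floor on all its arrays, so those differences are minimum values. Over all 10670 tested probe sets, 86 had 1 inbred at the floor in this way, so most of them were among the higher calls. Without the crossing date as a block 500 were called higher and 39 lower, and without the 2 dim arrays 426 and 67. On the deposited signals without scaling, where the median difference of all tested probe sets was -0.15, 447 were called higher and 650 lower.

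The higher calls lay where the inbreds differed most. Of the 739, the inbreds were at least 2-fold apart at 582, at least 4-fold at 436 and at least 8-fold at 294, against 1816, 691 and 363 of all tested probe sets. Where the inbreds were within 0.5 log2 of each other (6745 probe sets), the median log-scale difference was -0.012, and 1.08% were called higher and 2.42% lower. At 0.5 to 1 log2 (2109 probe sets) the median was 0.0014, with 3.98% higher and 3.03% lower. At 1 to 2 log2 (1125 probe sets) the median was 0.11, with 13% called higher and 1.51% lower. At 2 to 3 log2 (328 probe sets) the median was 0.39, with 43.3% higher and 0% lower. Where the inbreds were over 3 log2 apart (363 probe sets) the median was 0.95, with 81% called higher and 0.275% lower. On the 3 dates taken apart, the median of these 363 was 0.98, 1.01 and 0.98.

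On the scaled signals the amount was close to that of the 2:1 dosage sum of the inbred signals. That sum gave medians of 0.0029, 0.036, 0.13, 0.40 and 0.95 in the same 5 groups of probe sets, ordered by inbred difference. The linear-scale ratio, which is 0 under that sum, had medians of -0.013, -0.022, -0.0064, 0.014 and 0.037. The scaling to a common array median pulls the typical ratio toward 0, so ratios near 0 are in part set by it. On the deposited signals without scaling, the linear-scale medians were -0.16, -0.18, -0.16, -0.14 and -0.11. There the log-scale median of probe sets with inbreds over 3 log2 apart was 0.84. Among the 222 probe sets over 3 log2 higher in B73, the median log-scale difference was 0.99 and the dosage sum gave 0.94. Among the 141 as much higher in Mo17, the values were 0.89 and 0.95. On the linear scale 92 probe sets were called higher (0.862%) and 121 lower (1.13%). All 92 were among the 739 higher calls of the log scale. Of the 121, 98 were lower on both scales, 23 were not among the lower log-scale calls, and 2 of those 23 were called higher there. The linear-scale higher calls had a median ratio of 1.35-fold, and the lower calls were 1.23-fold lower in hybrids by the median. The inbreds were less than 2-fold apart at 47 of the 92 and at 89 of the 121. Most tested probe sets were so too, with 6745 of 10670 at 0 to 0.5 log2 and 2109 at 0.5 to 1 log2. In the 5 groups by inbred difference, 0.311%, 1.23%, 1.51%, 3.35% and 4.68% were called higher on the linear scale. The shares called lower were 0.815%, 1.61%, 1.69%, 0.305% and 3.31%. The linear-scale counts moved more with the processing than the log-scale ones: 20 higher and 6 lower without the date block, 10 and 8 without the 2 dim arrays, 12 and 10 without the filter on dim probe sets, and 39 and 413 on the deposited signals.

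**Figure D1:**
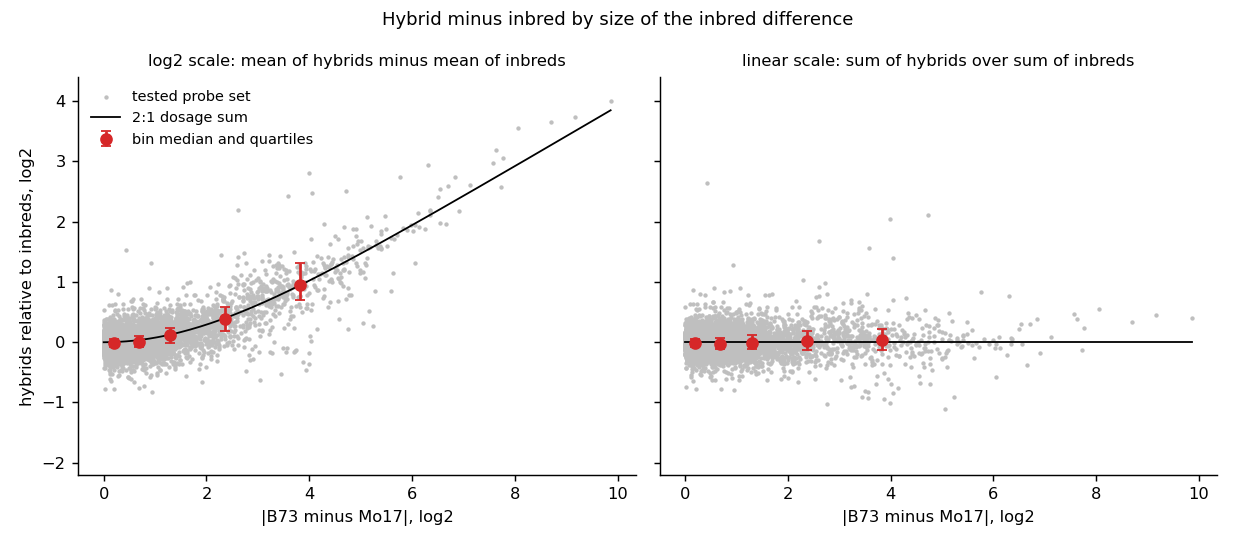
Hybrids relative to inbreds (vertical axis, log2) against the absolute log2 difference of B73 and Mo17 (horizontal axis), on the log scale at left and on the linear scale at right. Grey points are the 10670 tested probe sets, red points and bars are the median and quartiles of 5 bins, and the black line is the 2:1 dosage sum. The log-scale median climbs to 0.95 in the last bin along the line, while the linear-scale median stays between -0.022 and 0.037.

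Between the inbreds, the hybrid mean lay nearer the brighter parent on the log scale. Among 1814 probe sets whose inbreds were called different and at least 2-fold apart, 1450 (79.9%) had the hybrid mean nearer the higher inbred. On a scale where -1 is the lower inbred, 0 their log mean and 1 the higher inbred, the median position was 0.27, against 0.24 from the dosage sum. The 940 probe sets higher in B73 had a median position of 0.34, against 0.26 from the sum. The 874 higher in Mo17 had 0.16, against 0.23 from the sum. The hybrid mean was beyond the higher inbred at 17 of the 1814 and beyond the lower one at 1.

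Each gene was taken at its called probe set with the smallest adjusted p, and the 12 named genes with the largest higher differences at those probe sets include genes of storage protein, histone, fermentation, water transport, hormone binding, nucleotide synthesis and cytoskeleton. All 12, picked as calls over the same 3 dates, were above the inbred mean on each date. At these probe sets B73 was the brighter inbred in 11 of the 12, and UMPS was brighter in Mo17. Of all 739 higher calls, B73 was the brighter inbred at 454 and Mo17 at 285. Among the 1814 tested probe sets with inbreds called different and at least 2-fold apart, these numbers were 940 and 874. Among tested probe sets with inbreds over 3 log2 apart, they were 222 and 141. Another called probe set of pdc2, given below, was brighter in Mo17. All 12 were above the inbred mean in B73xMo17 and 11 of them in Mo17xB73, with HRGP at -0.22 log2 in Mo17xB73.

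The gene dzs18 encodes an 18-kDa delta zein, a sulfur-rich storage protein. Its signal was 21190, 19570 and 14710 in B73xMo17 and 4793, 3258 and 5377 in Mo17xB73, against 17440, 17190 and 16660 in B73 and 9.94, 26.5 and 1.92 in Mo17. Mo17 was at the floor on 2 of 3 arrays, B73xMo17 was near B73, and Mo17xB73 lay between the inbreds. The log-scale difference was the largest of any tested probe set (log2 difference 4.0 ± 0.16, adjusted p 1.58e-08), and the dosage sum gave 3.85. On the linear scale it was not called (log2 ratio 0.40 ± 0.21, adjusted p 0.312). The other 3 probe sets of dzs18 were also called higher, with 3.74, 2.98 and 0.93.

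The gene his2b5 encodes a histone H2B, a core packaging protein of chromatin. Its signal was 4725, 6363 and 6510 in B73xMo17 and 3250, 4092 and 5099 in Mo17xB73, against 6415, 8136 and 8577 in B73 and 85.4, 211 and 278 in Mo17. Both hybrids stood far above Mo17 on every array and below B73 in the mean, a 4.25-fold difference from the inbred mean (log2 difference 2.09 ± 0.14, adjusted p 1.02e-06). The dosage sum gave 1.70, and the linear-scale ratio was not called (log2 ratio 0.34 ± 0.17, adjusted p 0.301). An unnamed probe set with the same number, Zm.14497.4.A1_at, had its bright and dim inbreds the other way round and is given below.

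The gene pdc2 encodes a pyruvate decarboxylase, which makes acetaldehyde from pyruvate in fermentation. Probe set Zm.10317.1.S1_at read 1841, 1638 and 2102 in B73xMo17 and 1043, 914 and 1121 in Mo17xB73, against 2186, 1986 and 2390 in B73 and 66.0, 62.1 and 51.0 in Mo17 (log2 difference 1.93 ± 0.079, adjusted p 1.71e-08). A second probe set of pdc2, Zm.14518.1.S1_at, had its bright and dim inbreds the other way round, with means of 641 in B73xMo17 and 1309 in Mo17xB73, against 22.5 in B73 and 1825 in Mo17, and was also called higher (log2 difference 2.18 ± 0.11, adjusted p 9.43e-08). The last of its tested probe sets, Zm.14518.1.S1_s_at, had similar inbreds, with means of 1221 in B73xMo17 and 1240 in Mo17xB73, against 1067 in B73 and 1274 in Mo17, and was not called (log2 difference 0.077 ± 0.047, adjusted p 0.340). A sequence difference between B73 and Mo17 under the probes and a difference in RNA cannot be told apart here.

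The water channel gene pip2-5 moves water across the plasma membrane. Its signal was 219, 243 and 211 in B73xMo17 and 192, 179 and 191 in Mo17xB73, against 276, 210.5 and 300.4 in B73 and 27.1, 16.3 and 18.2 in Mo17 (log2 difference 1.5 ± 0.13, adjusted p 8.83e-06). Both hybrids lay between the inbreds in the mean and close to B73, and the linear-scale ratio was 0.56 (adjusted p 0.0803). The gene abp4, for an auxin-binding protein, read 1371, 1394 and 1223 in B73xMo17 and 519, 619 and 713 in Mo17xB73, against 1579, 2018 and 2031 in B73 and 69.5, 63.2 and 61.5 in Mo17 (log2 difference 1.38 ± 0.086, adjusted p 6.69e-07). Its linear-scale ratio was 0.0078, so the summed signal of its hybrids was nearly that of its inbreds.

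UMPS, for the enzyme that makes UMP at the end of pyrimidine synthesis, was the gene in this group that was brighter in Mo17. Its signal was 329.8, 347 and 406 in B73xMo17 and 319.7, 340.2 and 397 in Mo17xB73, against 50.8, 55.6 and 37.4 in B73 and 426, 442 and 528 in Mo17 (log2 difference 1.26 ± 0.11, adjusted p 1.33e-05). Both hybrids were close to Mo17 and to each other. Its other probe set, with inbred means of 1131 in B73 and 1506 in Mo17, was not called (log2 difference -0.047 ± 0.078, adjusted p 0.754).

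The gene tub6, for a beta-tubulin of microtubules, was also called on the linear scale. Probe set Zm.7750.2.S1_at read 3292, 3180 and 2588 in B73xMo17 and 2594, 3287 and 2859 in Mo17xB73, against 3964, 4507 and 3878 in B73 and 369.6, 499 and 309.8 in Mo17 (log2 difference 1.23 ± 0.073, adjusted p 3.84e-07, and log2 ratio 0.39 ± 0.084, adjusted p 0.0425). The hybrids were alike and nearer to B73. Of its other 3 probe sets, Zm.7750.2.S1_x_at was called higher (0.25, adjusted p 0.0108), and the others had -0.086 and -0.085 and were not called.

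The gene o2 encodes Opaque2, a transcription factor that activates zein genes. Probe set Zm.3944.1.S1_at read 2773, 3810 and 4910 in B73xMo17 and 1847, 1848 and 2845 in Mo17xB73, against 3829, 3953 and 6661 in B73 and 330.4, 349 and 338 in Mo17 (log2 difference 1.17 ± 0.10, adjusted p 9.35e-06). All 6 hybrid arrays lay above every Mo17 array, and B73xMo17 was the higher cross. The other probe set of o2, Zm.14987.1.S1_s_at, with means of 2212 in B73xMo17 and 1687 in Mo17xB73, against 1994 in B73 and 1468 in Mo17, was not called (log2 difference 0.18 ± 0.10, adjusted p 0.302).

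The other 4 are given by their means. MRP2 averaged 493 in B73xMo17 and 339 in Mo17xB73, against 754 in B73 and 34.7 in Mo17 (log2 difference 1.34 ± 0.12, adjusted p 1.38e-05). HMT-2, a homocysteine methyltransferase of methionine synthesis, averaged 353 in B73xMo17 and 306 in Mo17xB73, against 516 in B73 and 37.1 in Mo17 (log2 difference 1.25 ± 0.093, adjusted p 2.71e-06). The gene saf1 averaged 179.7 in B73xMo17 and 80.9 in Mo17xB73, against 179 in B73 and 15.2 in Mo17, with Mo17 at the floor on 3 of 3 arrays, so the geometric mean of its hybrids was at least 2.31-fold that of its inbreds (log2 difference 1.21 ± 0.14, adjusted p 1.02e-04). On the linear scale saf1 was not called (log2 ratio 0.42 ± 0.16, adjusted p 0.190). HRGP, a hydroxyproline-rich glycoprotein of the cell wall, averaged 431 in B73xMo17 and 71.0 in Mo17xB73, against 409.9 in B73 and 16.8 in Mo17 (log2 difference 1.08 ± 0.20, adjusted p 0.00457), and its second probe set was called as well (log2 difference 0.86 ± 0.20, adjusted p 0.0175).

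**Figure D2:**
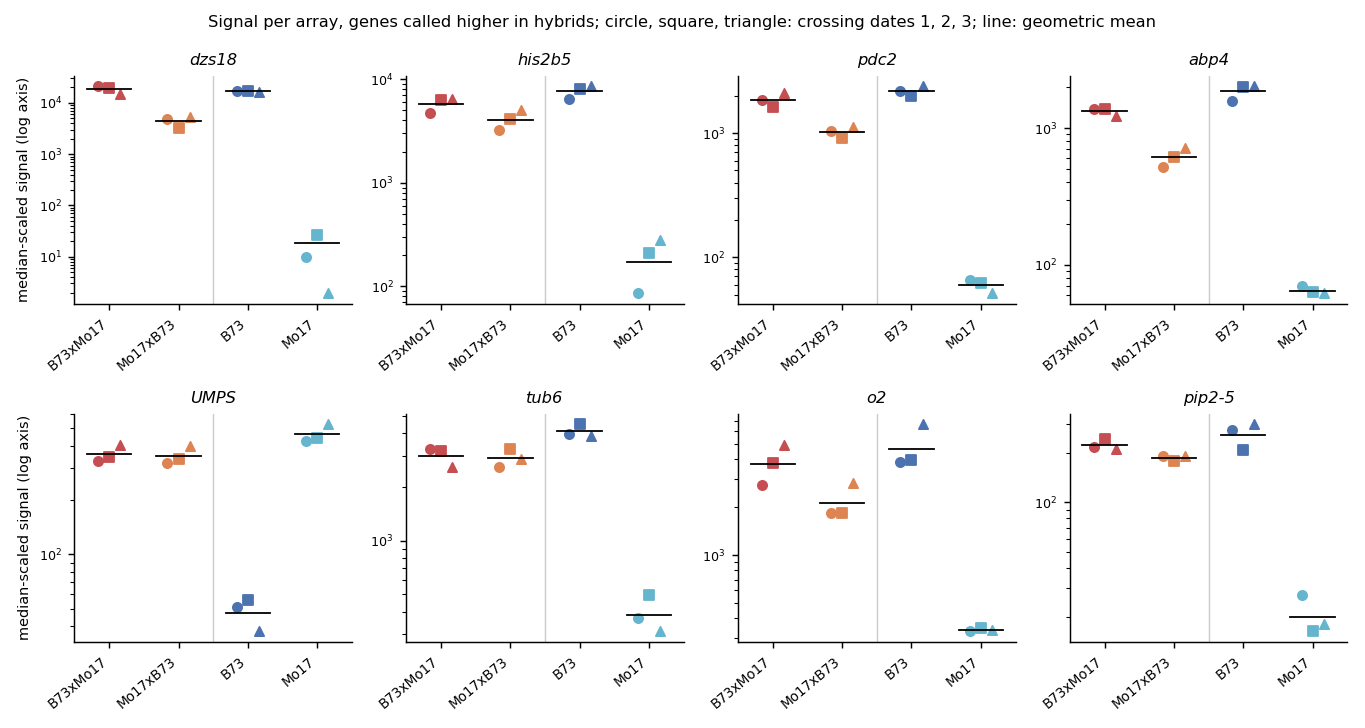
Median-scaled signal (log axis) of 8 genes called higher, on each of the 12 arrays, with the hybrids left of the inbreds. Circles, squares and triangles are the 3 crossing dates and lines are geometric means. In each panel 1 inbred is far below the other and both hybrids lie toward the brighter one, as at dzs18, where Mo17 is at or near the floor.

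More genes of the same kind followed among the named members of gene lists. GAPC, a glycolytic glyceraldehyde-3-phosphate dehydrogenase, averaged 269.5 in B73xMo17 and 356 in Mo17xB73, against 60.7 in B73 and 357 in Mo17 (log2 difference 1.07 ± 0.13, adjusted p 1.67e-04), while its other probe set had 0.13 (adjusted p 0.0573). The gene eif7, for a translation initiation factor, averaged 825 in B73xMo17 and 603 in Mo17xB73, against 1219 in B73 and 119.7 in Mo17 (log2 difference 0.89 ± 0.093, adjusted p 5.24e-05), and its other probe set had -0.074. CesA-4, a cellulose synthase, averaged 178 in B73xMo17 and 176 in Mo17xB73, against 258 in B73 and 35.8 in Mo17 (log2 difference 0.88 ± 0.11, adjusted p 2.27e-04), and its other probe set was called with a larger difference (log2 difference 1.14 ± 0.16, adjusted p 7.75e-04). The ribosomal protein gene rpl39 averaged 8723 in B73xMo17 and 9453 in Mo17xB73, against 4056 in B73 and 9930 in Mo17 (log2 difference 0.52 ± 0.10, adjusted p 0.00653), while its other probe set had 0.087 and was not called. Over the whole array, 120 genes had several tested probe sets. Of these, 24 had a higher call, at 3 all their tested probe sets were called higher, at 21 another was not called, and at 0 another was called lower. Of the 5 with a lower call, 1 had all its tested probe sets lower and 4 had another that was not called.

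The lower calls were small. The 12 named genes with the largest lower differences include glutathione transferases, a cellulose synthase, a subunit of the replication helicase and a protease. Of the 245, the inbreds were at least 2-fold apart at 18, against 1816 of all 10670 tested probe sets. The 12 named genes lay between -0.83 ± 0.21 and -0.28 ± 0.071 log2. All 12, likewise picked as calls over the same 3 dates, were below the inbred mean on each date. The difference was mostly that of 1 cross. B73xMo17 was below the inbred mean at 11 of the 12, with tip3a the exception (0.056), and Mo17xB73 was below it at 7 of the 12. Over all 245 the median was -0.40 in B73xMo17 and -0.11 in Mo17xB73, and 155 differed between the crosses. Over the 739 higher calls the medians were 0.68 and 0.52, and 487 differed between the crosses. Of all 10670 tested probe sets, 4761 (44.6%) differed between the crosses. B73xMo17 also held both dim arrays, and without them 67 probe sets were called lower. Each of the 12 lower genes lost its call under some of the alternatives tried, from 2 of 26 at cesa8 to 16 of 25 at tbp1, and none changed direction on the log scale.

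The glutathione transferase gene gst42, of the family that joins glutathione to toxic compounds, had the largest named lower call. Its signal was 298, 339 and 401 in B73xMo17 and 366, 722 and 1804 in Mo17xB73, against 565, 589.9 and 888 in B73 and 681, 1084 and 2832 in Mo17 (log2 difference -0.83 ± 0.21, adjusted p 0.0265). In B73xMo17 all 3 arrays were below every inbred array, and in Mo17xB73 1 array was. Hybrids were 1.78-fold lower in the geometric mean. Another glutathione transferase gene, gst2, read 112, 68.4 and 63.8 in B73xMo17 and 549, 733 and 659.8 in Mo17xB73, against 139, 92.3 and 136 in B73 and 977, 1276 and 778 in Mo17 (log2 difference -0.62 ± 0.17, adjusted p 0.0402). There the crosses lay on opposite sides of the inbred mean, at -2.13 in B73xMo17 and 0.90 in Mo17xB73, and the groups overlapped.

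PEAMT, the methyltransferase that makes phosphocholine from phosphoethanolamine, read 547, 1082 and 797 in B73xMo17 and 1539, 3299 and 2362 in Mo17xB73, against 823, 1231 and 1378 in B73 and 2476, 3720 and 2712 in Mo17 (log2 difference -0.44 ± 0.090, adjusted p 0.00945). B73xMo17 was below B73 on each date, and Mo17xB73 lay within the inbred range. HP1, listed among synonyms as ZmHP1, a histidine phosphotransfer protein of cytokinin signalling, read 737, 1282 and 957 in B73xMo17 and 1266, 2363 and 1390 in Mo17xB73, against 832, 1246 and 1045 in B73 and 2435, 3502 and 2237 in Mo17 (log2 difference -0.41 ± 0.072, adjusted p 0.00319). HP3 of the same family averaged 434 in B73xMo17 and 851 in Mo17xB73, against 463 in B73 and 1327 in Mo17 (log2 difference -0.37 ± 0.083, adjusted p 0.0168). Both were also called lower on the linear scale, HP1 at -0.52 (adjusted p 0.00752) and HP3 at -0.48 (adjusted p 0.0282). In both, B73xMo17 was the low cross.

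MCM6, a subunit of the DNA replication helicase, read 309, 291 and 291 in B73xMo17 and 342, 562 and 495 in Mo17xB73, against 432, 591 and 519.5 in B73 and 361, 521 and 456 in Mo17 (log2 difference -0.37 ± 0.089, adjusted p 0.0246). The 3 B73xMo17 arrays and 1 of Mo17xB73 were below every inbred array. The other probe sets of MCM6 had -0.18 (adjusted p 0.348) and -0.15 (adjusted p 0.395) and were not called. LON2, a Lon protease, had 4 of 6 hybrid arrays below every inbred array, with 535 to 1071 over the hybrid arrays, with a median of 629, against 711 to 1094 over the inbred arrays, with a median of 813 (log2 difference -0.31 ± 0.071, adjusted p 0.0172).

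The rest of the 12 were within 1.27-fold by the geometric mean. The cellulose synthase gene cesa8 read 276 to 812 over the hybrid arrays, with a median of 511, against 382 to 964 over the inbred arrays, with a median of 659.5 (log2 difference -0.34 ± 0.073, adjusted p 0.0115). The small heat shock protein gene hsp22 read 2659 to 6266 over the hybrid arrays, with a median of 3762, against 3068 to 7984 over the inbred arrays, with a median of 5380 (log2 difference -0.32 ± 0.087, adjusted p 0.0402). The gene tbp1, for the TATA-binding protein of transcription initiation, read 118 to 193 over the hybrid arrays, with a median of 179, against 157 to 231 over the inbred arrays, with a median of 202 (log2 difference -0.31 ± 0.086, adjusted p 0.0443). The vacuolar water channel gene tip3a read 258 to 682 over the hybrid arrays, with a median of 376, against 356 to 779.8 over the inbred arrays, with a median of 551 (log2 difference -0.29 ± 0.072, adjusted p 0.0281), and here Mo17xB73 was the low cross (-0.63). The chromatin protein gene nfd101 read 2725 to 3927 over the hybrid arrays, with a median of 3373, against 3185 to 5551 over the inbred arrays, with a median of 3673 (log2 difference -0.28 ± 0.071, adjusted p 0.0282). Hybrid and inbred arrays overlapped in each of these 5.

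The named genes called on the linear scale were picked out after their values were seen. Higher on that scale were hsp18c, expA4, gst31, tub6, ERF1, BCH2 and psei1. The expansin gene expA4, whose product loosens cell walls, read 255, 257 and 184 in B73xMo17 and 345, 313 and 245 in Mo17xB73, against 165, 128 and 164 in B73 and 149.6, 149.9 and 114 in Mo17. All 6 hybrid arrays were above all 6 inbred arrays and the inbreds were alike, so both scales gave nearly the same value (log2 difference 0.86 ± 0.11, adjusted p 2.01e-04, and log2 ratio 0.87 ± 0.11, adjusted p 0.00365). Its other probe sets were not called: Zm.13728.2.S1_a_at had 0.23 ± 0.077 (adjusted p 0.0878) and Zm.13728.2.S1_at had 0.0053 ± 0.0805 (adjusted p 0.979).

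The small heat shock protein gene hsp18c read 556, 452 and 332 in B73xMo17 and 1740, 1344 and 1033 in Mo17xB73, against 780.2, 441 and 526 in B73 and 382, 502 and 292 in Mo17 (log2 ratio 0.91 ± 0.13, adjusted p 0.00754). The Mo17xB73 arrays were above every inbred array, and B73xMo17 lay among the inbreds. The glutathione transferase gene gst31 read 177, 134 and 188 in B73xMo17 and 714, 419.6 and 947 in Mo17xB73, against 272, 232 and 315 in B73 and 207, 145 and 292 in Mo17 (log2 ratio 0.78 ± 0.11, adjusted p 0.00553), and there too every Mo17xB73 array was above every inbred array. Of its other 3 probe sets, Zm.556.1.S1_x_at was called higher on the log scale (0.39, adjusted p 0.0463) and the others, at 0.27 and 0.049, were not.

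**Figure D3:**
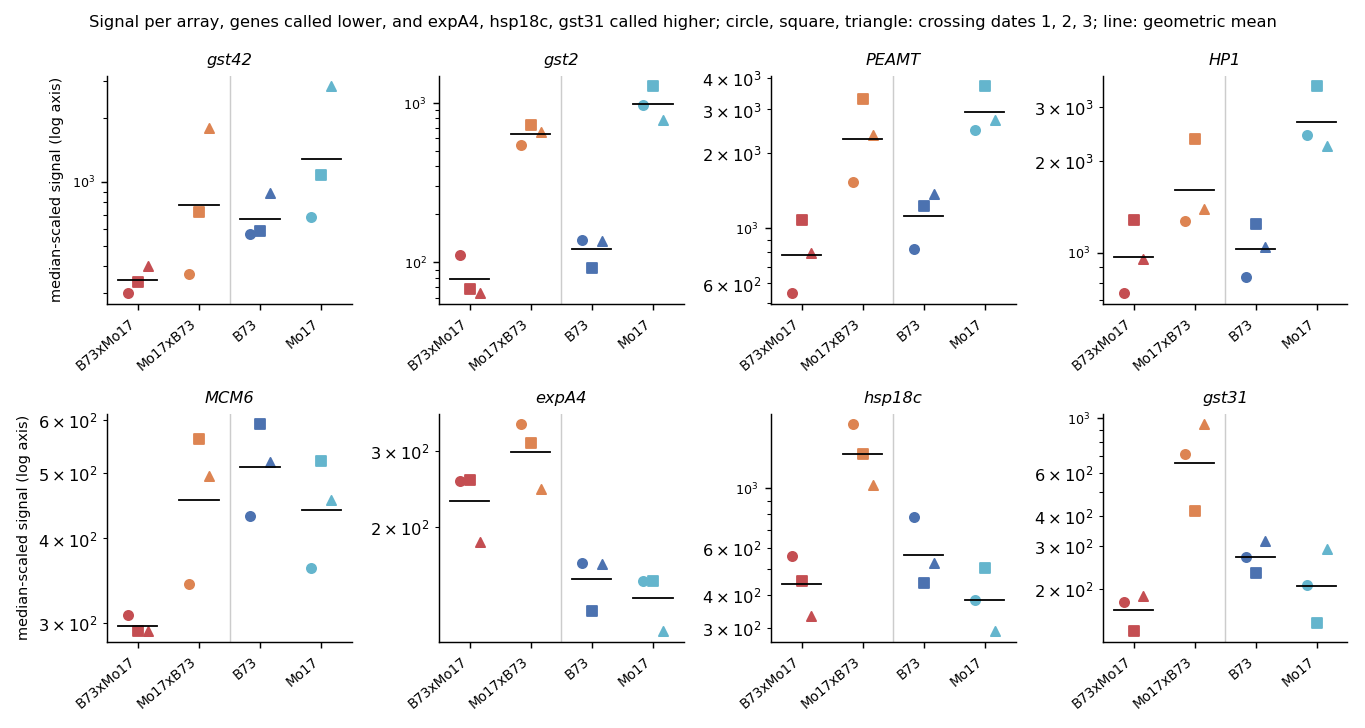
Median-scaled signal (log axis) of 5 genes called lower (gst42, gst2, PEAMT, HP1, MCM6) and 3 called higher on both scales (expA4, hsp18c, gst31), on each of the 12 arrays, with the hybrids left of the inbreds. Symbols are crossing dates and lines are geometric means. At the 5 lower genes B73xMo17 is the low cross, and at expA4 both crosses stand above all inbred arrays.

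Smaller linear-scale ratios above 0 were found for ERF1 (log2 ratio 0.25 ± 0.050, adjusted p 0.0315), for BCH2, a beta-carotene hydroxylase of carotenoid synthesis (log2 ratio 0.20 ± 0.041, adjusted p 0.0357), and for psei1, a cystatin that inhibits cysteine proteases (log2 ratio 0.20 ± 0.044, adjusted p 0.0432). The signal of BCH2 was 4360 to 5201 over the hybrid arrays, with a median of 4798, against 2943 to 5302 over the inbred arrays, with a median of 4239. Below 0 on the linear scale, beside HP1 and HP3, were CPN60I, a mitochondrial chaperonin (log2 ratio -0.18 ± 0.035, adjusted p 0.0315), his1, a linker histone (log2 ratio -0.20 ± 0.044, adjusted p 0.0475), EIF5, a translation initiation factor (log2 ratio -0.20 ± 0.043, adjusted p 0.0404), and crt2, the calcium-binding chaperone calreticulin (log2 ratio -0.27 ± 0.054, adjusted p 0.0343). The cellulose synthase genes cesa6 (log2 ratio -0.31 ± 0.069, adjusted p 0.0490) and cesa8 (log2 ratio -0.34 ± 0.078, adjusted p 0.0499) were also below 0. So were frk2, a fructokinase (log2 ratio -0.23 ± 0.045, adjusted p 0.0303), and glct1, a plastid glucose transporter (log2 ratio -0.23 ± 0.050, adjusted p 0.0432).

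The scales disagreed in sign at a pair of named genes called on the linear scale. PLTP averaged 547 in B73xMo17 and 149 in Mo17xB73, against 1062 in B73 and 66.1 in Mo17, which gave a log2 ratio -0.70 ± 0.12, adjusted p 0.0171, on the linear scale and 0.11 (adjusted p 0.542) on the log scale. Both crosses were well below B73 there, and the hybrids' sum fell short of the inbreds' sum while their log mean did not. The calmodulin gene, for a calcium sensor, averaged 346 in B73xMo17 and 216 in Mo17xB73, against 756 in B73 and 81.5 in Mo17, which gave a log2 ratio -0.58 ± 0.12, adjusted p 0.0393, and a log-scale difference of 0.14 (adjusted p 0.441). The water channel gene pip2d averaged 22.7 in B73xMo17 and 122 in Mo17xB73, against 22.9 in B73 and 249 in Mo17, and was called lower on the linear scale only (log2 ratio -0.91 ± 0.21, adjusted p 0.0481, against a log-scale adjusted p of 0.0728).

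The mean of both hybrids was seldom called beyond both inbreds. This test does not count a single cross beyond both inbreds, as Mo17xB73 was at hsp18c and gst31. By the test of the hybrid mean against each inbred, 0 probe sets (0%) were called above both and 1 (0.00937%) below both, while 114 and 188 had an unadjusted p under 0.05 (limma). The 1 below both was Zm.16484.1.A1_at, a probe set with no gene name here, with 2026 to 2459 over the hybrid arrays, with a median of 2206, against 2670 to 3761 over the inbred arrays, with a median of 3256 (log2 difference -0.53 ± 0.050, adjusted p 2.07e-05; adjusted p of the lower position 0.0416). All 6 of its hybrid arrays were below all 6 inbred arrays. The call was lost when any 1 of the 12 arrays was left out, and without B73 replicate 3, 1 probe set was called above both inbreds. Over all tested probe sets, 6 (0.0562%) had every hybrid array above every inbred array and 13 (0.122%) every hybrid array below. Of these, 4 and 12 were called. Zm.161.1.S1_a_at, an unnamed probe set picked out after its values were seen, had 5 of 6 hybrid arrays above every inbred array. It was not called above both inbreds, though it was called higher on the linear scale (log2 ratio 1.56 ± 0.15, adjusted p 0.00168). The named ones of the 6 were expA4, PNGase and vp9. PNGase, an enzyme that cuts sugar chains from glycoproteins, read 156 to 180.4 over the hybrid arrays, with a median of 168, against 108 to 150.5 over the inbred arrays, with a median of 137 (log2 difference 0.32 ± 0.087, adjusted p 0.0394). The gene vp9, for zeta-carotene desaturase of carotenoid synthesis, read 102 to 133 over the hybrid arrays, with a median of 104, against 74.2 to 102 over the inbred arrays, with a median of 91.3, so the groups nearly touched, and was not called (log2 difference 0.30 ± 0.11, adjusted p 0.126). Of the unnamed 13, Zm.878.1.S1_at was the brightest, with 6722 to 7837 over the hybrid arrays, with a median of 7051, against 8131 to 9100 over the inbred arrays, with a median of 8920 (log2 difference -0.29 ± 0.040, adjusted p 4.47e-04).

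The largest differences without a gene name had 1 inbred at or near the floor, as dzs18 did, but with B73 as the dim one. B73 was at the floor on 2 of 3 arrays at both probe sets. Probe set Zm.14705.1.S1_at read 3733 to 6771 over the hybrid arrays, with a median of 5026, against 4.36 to 8810 over the inbred arrays, with a median of 3890, with B73 at the dim end (log2 difference 3.65 ± 0.15, adjusted p 1.72e-08). Zm.14497.4.A1_at read 3121 to 5617 over the hybrid arrays, with a median of 4259, against 1.52 to 6067 over the inbred arrays, with a median of 2865 (log2 difference 3.56 ± 0.20, adjusted p 2.05e-07). It shares the number 14497 with the his2b5 probe set, Zm.14497.1.A1_at, where Mo17 was the dim inbred. A sequence difference under the probes and a difference in RNA cannot be told apart at this pair either. The largest unnamed lower calls were Zm.18066.1.A1_at, with 151 to 402 over the hybrid arrays, with a median of 226, against 335 to 482 over the inbred arrays, with a median of 414 (log2 difference -0.78 ± 0.22, adjusted p 0.0439), and Zm.6933.1.A1_at, with 71.3 to 120.4 over the hybrid arrays, with a median of 92.0, against 105 to 223 over the inbred arrays, with a median of 158 (log2 difference -0.78 ± 0.16, adjusted p 0.00877). On the linear scale, some probe sets departed far from the dosage sum, again picked out after their values were seen. Zm.12.1.S1_at averaged 11291 in B73xMo17 and 2866 in Mo17xB73, against 204 in B73 and 3235 in Mo17 (log2 ratio 2.04 ± 0.27, adjusted p 0.00518), so B73xMo17 was above both inbreds and Mo17xB73 near Mo17. Zm.15004.1.S1_at averaged 16.2 in B73xMo17 and 278 in Mo17xB73, against 27.1 in B73 and 20.2 in Mo17 and passed the filter through Mo17xB73 alone, with the other genotypes near the floor, so no ratio is given. Zm.18511.1.S1_at, at the other end, averaged 562 in B73xMo17 and 234 in Mo17xB73, against 1672 in B73 and 50.2 in Mo17 (log2 ratio -1.11 ± 0.18, adjusted p 0.0129).

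The 12 higher and 12 lower genes named first had 1 direction on all dates. They were picked as the largest calls of a fit to these same arrays, so this is not separate evidence. At pip2-5 the 3 dates gave 1.24, 1.83 and 1.44 log2, and at abp4 1.35, 1.38 and 1.40. At PEAMT they gave -0.64, -0.18 and -0.49, and at tbp1 -0.35, -0.11 and -0.47.

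**Figure D4:**
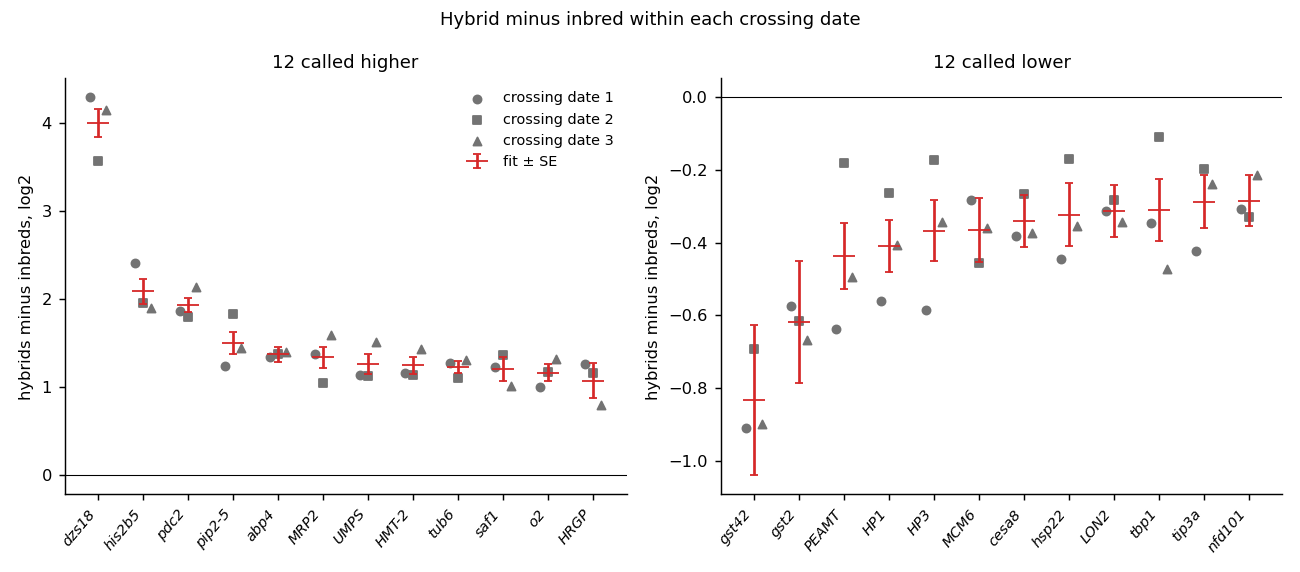
Mean of the hybrid arrays minus mean of the inbred arrays (vertical axis, log2) within each of the 3 crossing dates (grey symbols), with the fitted difference ± SE in red, for the 12 higher and the 12 lower genes named first. At all 24 genes, which were picked as calls from these same arrays, the 3 dates fall on the same side of 0. At tbp1 the range runs from -0.47 to -0.11.

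The calls were also read by brightness. With the tested probe sets in 4 equal groups from dimmest to brightest, 281, 182, 149 and 127 were called higher and 15, 51, 75 and 104 lower on the log scale. On the linear scale the same groups gave 12, 17, 27 and 36 higher calls and 9, 27, 43 and 42 lower calls.

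Lists of genes for endosperm functions were then counted, with the brightest tested probe set of each gene. They held 256 genes, of which 17 (6.64%) were called higher and 13 (5.08%) lower, beside 6.93% and 2.3% of all tested probe sets. The zeins had the highest median, 0.78 log2, beside 0.0054 for all probe sets, and 7 of 8 had inbreds at least 2-fold apart. Of these 8, dzs18 (log2 difference 2.98 ± 0.15, adjusted p 7.71e-08) and the gamma zein gz50 were called higher and none lower. The signal of gz50 was 9938, 9832 and 10280 in B73xMo17 and 6055, 2799 and 6503 in Mo17xB73, against 10560, 9063 and 9302 in B73 and 2643, 958 and 2809 in Mo17 (log2 difference 0.69 ± 0.18, adjusted p 0.0364). The other 6 had log-scale values from 0.16 at gz27 to 0.97 at z1D_2. Zein genes are near-identical copies that can share probes, so members of the family are not separate evidence. The list's median linear-scale ratio was 0.28, and 0 of 8 were called on that scale.

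Of 6 transcription factors of endosperm, o2 and its partner ohp1 were called higher. The signal of ohp1 was 544 to 801 over the hybrid arrays, with a median of 640.4, against 275 to 1029 over the inbred arrays, with a median of 619 (log2 difference 0.27 ± 0.055, adjusted p 0.00930). PBF, a factor that binds zein promoters, had 0.057 ± 0.045 and ohp2 -0.0049. Of 16 genes of starch synthesis and sucrose supply, 3 were called higher and 0 lower, with a median of 0.095. The starch synthase gene wx1, which makes amylose, read 9851, 9606 and 9114 in B73xMo17 and 6828, 4703 and 6763 in Mo17xB73, against 8893, 8288 and 8851 in B73 and 4956, 3030 and 4311 in Mo17 (log2 difference 0.36 ± 0.083, adjusted p 0.0187), and all 3 B73xMo17 arrays were above every inbred array. The debranching enzyme gene zpu1 read 345 to 769 over the hybrid arrays, with a median of 557, against 229.8 to 736 over the inbred arrays, with a median of 401 (log2 difference 0.37 ± 0.088, adjusted p 0.0204), and the branching enzyme gene sbe1 had a log2 difference 0.17 ± 0.048, adjusted p 0.0479. ADP-glucose pyrophosphorylase genes sh2 (0.092 ± 0.050) and bt2 (0.052 ± 0.049) were not called. Of the calls in these lists, gz50, wx1 and zpu1 lost theirs under 13, 10 and 11 of 26 alternatives.

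Of 9 water channels, pip2-5, pip2c and pip2e were called higher and tip3a lower, with a median of 0.32. The gene pip2c averaged 872 in B73xMo17 and 882 in Mo17xB73, against 281 in B73 and 1347 in Mo17 (log2 difference 0.51 ± 0.11, adjusted p 0.00925) and was thus brighter in Mo17, and pip2e had a log2 difference 0.15 ± 0.043, adjusted p 0.0450. Of 8 heat shock genes, hsp18c and hsp70-5 (log2 difference 0.20 ± 0.054, adjusted p 0.0399) were called higher and CPN60I (log2 difference -0.18 ± 0.035, adjusted p 0.00745) and hsp22 lower. Of 14 cell wall genes, CesA-4 and HRGP were called higher and cesa6 (log2 difference -0.25 ± 0.065, adjusted p 0.0344) and cesa8 lower, beside the called dimmer probe set of expA4.

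Of 15 genes of cell cycle, DNA replication and histones, his2b5 was called higher and MCM6 and his1 lower, with a median of -0.087. The signal of his1 was 3461 to 4811 over the hybrid arrays, with a median of 4345, against 3859 to 6156 over the inbred arrays, with a median of 4927 (log2 difference -0.20 ± 0.044, adjusted p 0.0165), and its other 2 probe sets had -0.17 (adjusted p 0.0261) and -0.17 (adjusted p 0.0311). MCM7, another subunit of the replication helicase, had -0.22 ± 0.081 and was not called. Of 45 genes in a list of chromatin genes, the histone acetyltransferase gene gcn5 was called higher (log2 difference 0.23 ± 0.046, adjusted p 0.00783) and nfd101 lower, with a median of -0.027. A list written for Polycomb and imprinted genes held fie1, fie2, mez1, mez2 and dmt101, and none was called. Their values lay between -0.18 and -0.046. The value of -0.046 was that of dmt101, a DNA methyltransferase gene that was also counted in the chromatin list.

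Of 12 glutathione transferases, gst42 and gst2 were called lower and none higher at their brightest probe sets, beside the called other probe sets of gst31 described above. Of 11 hormone genes, abp4 was called higher. Of 18 ribosomal protein genes 1 was called lower, arpp2a-3, for an acidic protein of the ribosomal stalk (log2 difference -0.18 ± 0.049, adjusted p 0.0409), beside a called dimmer probe set of rpl39. Of 16 chaperones of the endoplasmic reticulum 1 was called lower, pdi6, a protein disulfide isomerase (log2 difference -0.20 ± 0.045, adjusted p 0.0162), and of 9 translation factors EIF5 was (log2 difference -0.19 ± 0.043, adjusted p 0.0163), beside a called dimmer probe set of eif7. Under the alternatives tried, arpp2a-3 lost its call in 16 of 26, cesa6 in 14, EIF5 in 10, pdi6 and his1 in 6 each, pip2c in 5, CPN60I and gcn5 in 4 each, ohp1 in 3 and hsp18c in 2. The chaperone gene crt2 had a called probe set (log2 difference -0.26 ± 0.053, adjusted p 0.00987), but its brightest one had -0.044 (adjusted p 0.646).

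The 11 genes of the basal transfer layer, the cells that take up maternal nutrients, had 0 calls and a median of 0.023 over both hybrids. Taken apart, the crosses lay on opposite sides of the inbred mean, and the list's median was -0.76 in B73xMo17 and 0.90 in Mo17xB73. The 2 genes of the embryo surrounding region, with 0 calls, were at 0.62 ± 0.38 and 0.40 ± 0.21. The 22 genes of glycolysis, fermentation and amino acids had 0 calls on their brightest probe sets and a median of 0.059, beside the called dimmer probe sets of pdc2 and GAPC. The 15 genes of the cytoskeleton had 0 calls, beside the called dimmer probe sets of tub6. Lists for embryo, aleurone, redox enzymes, proton pumps and green tissue also had 0 calls. The array's 22 control probe sets for actin, ubiquitin and other housekeeping genes had log-scale values from -0.086 to 0.72, with a median of 0.077.

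**Figure D5:**
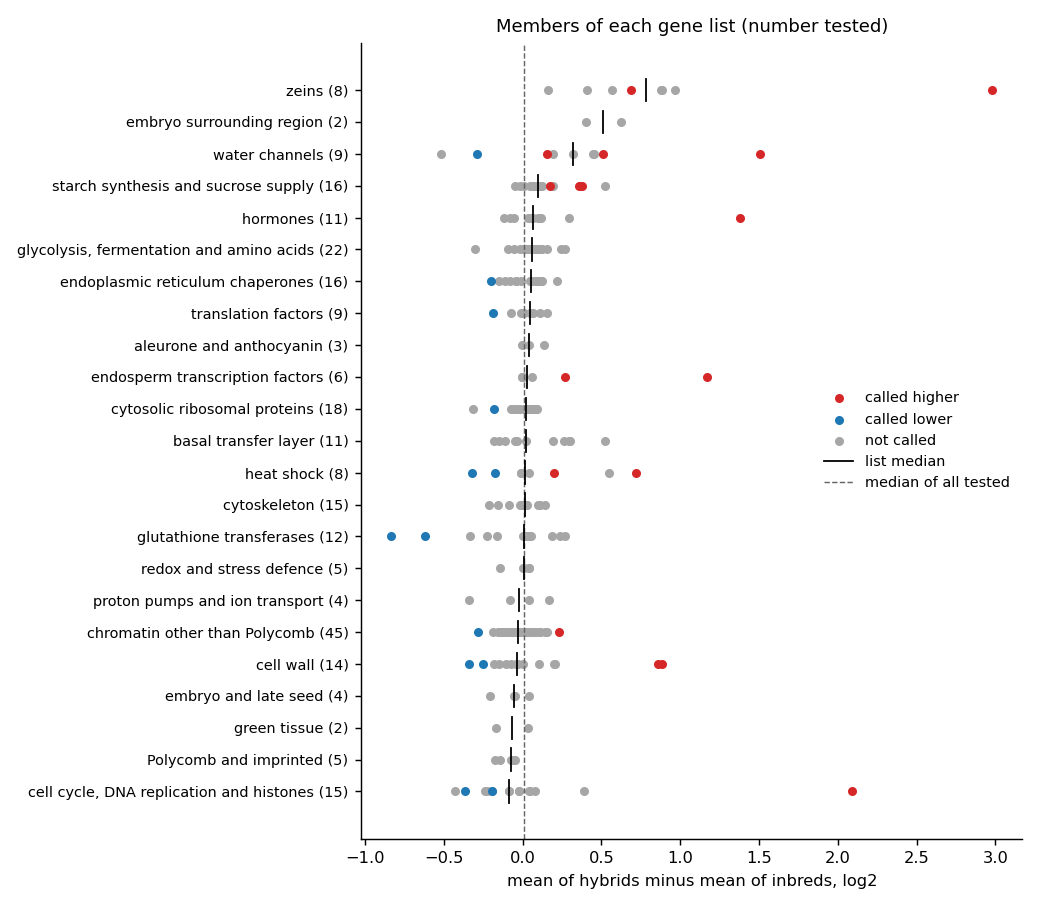
Mean of hybrids minus mean of inbreds (horizontal axis, log2) for each member of 23 gene lists, with the number tested after each name. Colours mark members called higher, called lower and not called, short bars are list medians, and the dashed line is the median of all tested probe sets. The zein members reach furthest to the right, to 2.98 at dzs18, with a list median of 0.78.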

How the data were processed

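RNA from 12 endosperm pools was hybridised to 1-colour Affymetrix maize arrays, with 8 µg of RNA labelled by a one-cycle kit per the labels' protocols. The deposited values are linear signal intensity made by the authors with MAS5, per the submitters' processing notes. Here 179 control probe sets (113 spike-in or housekeeping controls and 66 reporter probe sets) were left out of 17734. Each array was multiplied to a common median, values were floored at the pooled 20th percentile (15.2), and the 10670 probe sets whose mean over 12 arrays passed the pooled 40th percentile (73.7) were tested on log2 values. The 4 genotype means with crossing date as a block left 6 residual degrees of freedom (R 4.3.3, limma 3.58.1, eBayes with an intensity trend, two-sided, Benjamini-Hochberg over all tested probe sets, threshold 0.05). The replicate number marks a shared crossing date in the labels, which is the basis of the block, and same-date arrays deviated together (mean correlation 0.398, 18 pairs). The labels describe replicates as separate crosses of a date. Linear-scale ratios used the same fit with standard errors by the delta method. An error after ± is the standard error of the fit over 12 arrays.

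Gene names came from the platform annotation updated through RefSeq gene tables (Zm-B73-REFERENCE-NAM-5.0): 1453 probe sets were listed, 1452 with 1 gene and 1 with several, 1377 matched RefSeq, and 1106 placeholder symbols were named by a synonym. Of the tested probe sets, 916 had 1 gene, for 745 genes. Other probe sets are unnamed here. The genes named were the 12 higher and 12 lower calls with the largest log2 difference, up to 6 called above and 6 below the inbred range, and, from each gene list, at most 2 called genes, with 1 probe set a gene, its called one with the smallest adjusted p. Named genes called on the linear scale and other probe sets of a named gene were added after their values were seen. The comparison, the lists and the rule were chosen with earlier results of these data known. The method was tested on simulated data. Alternatives changed the scaling, floor, filter, block, trend and arrays used. The number of arrays limits the precision, and no probe or transcript sequences were used.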

Additional observations from a re-analysis of the deposited data

Results flagged for a closer look

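Of 52 named probe sets, 35 differed between the reciprocal hybrids when the difference itself was tested in the same fit, beside 44.6% of all tested probe sets. The values in brackets are the log2 signal of B73xMo17 minus Mo17xB73, and both crosses share the inbred arrays, so this is also the difference between their distances from the inbred mean. Among the 12 higher genes named first, dzs18 (2.06), pdc2 (0.86), abp4 (1.12), MRP2 (0.54), saf1 (1.15), o2 (0.81) and HRGP (2.60) were higher in B73xMo17. Among the 12 lower ones, gst42 (-1.19), gst2 (-3.03), PEAMT (-1.56), HP1 (-0.73), HP3 (-0.97), MCM6 (-0.62), cesa8 (-1.17), hsp22 (-0.72) and LON2 (-0.61) were lower in B73xMo17, and tip3a (0.68) was higher there. Among members of the gene lists, gz50 (1.06), wx1 (0.66), zpu1 (0.62), ohp1 (0.44), gcn5 (0.37), eif7 (0.45) and EIF5 (0.27) were higher in B73xMo17, and hsp18c (-1.62), crt2 (-0.38), pdi6 (-0.39) and gst31 (-2.0) were higher in Mo17xB73. Among genes called on the linear scale, PLTP (1.88), frk2 (0.18), calmodulin (0.68), glct1 (0.65) and psei1 (0.25) were higher in B73xMo17, and pip2d (-2.43) and cesa6 (-0.88) in Mo17xB73.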

How the results depend on the processing

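On the log scale 739 probe sets were called higher and 245 lower, on the linear scale 92 and 121, beyond both inbreds 0 above and 1 below, and among list members 17 and 13. Without the crossing date as a replicate block, these pairs were 500 and 39, 20 and 6, 0 and 0, and 9 and 2. On the deposited signals they were 447 and 650, 39 and 413, 2 and 3, and 12 and 25, with a shift of -0.15 in the median of all probe sets, and with the block left out as well 328 and 110 on the log scale. Without a filter on dim probe sets they were 561 and 136, 12 and 10, 0 and 0, and 8 and 3. With a stricter filter the log-scale pair was 442 and 211. Without the intensity trend the pairs were 660 and 160, 45 and 29, 0 and 0, and 13 and 6. Without the 2 dim B73xMo17 arrays they were 426 and 67, 10 and 8, 0 and 0, and 9 and 6. Leaving out 1 array or 1 date gave 489 to 803 higher and 50 to 307 lower on the log scale, 13 to 139 and 6 to 160 on the linear scale, 0 to 1 above and 0 to 1 below both inbreds, and 10 to 30 and 2 to 15 among list members. The lowest of these log-scale counts came without date 1 (489 higher) and without date 3 (50 lower), and the highest without B73xMo17 replicate 3 (803 higher) and without B73 replicate 2 (307 lower). The lower log-scale calls were 137 without B73xMo17 replicate 2, 132 and 117 without Mo17xB73 replicates 1 and 3, 117 without B73 replicate 1, and 133 and 138 without Mo17 replicates 2 and 3. Quantile normalization, trimmed mean scaling, another floor, robust empirical Bayes and the reporter probe sets kept (the last chosen after seeing the data) left the log-scale counts at 701 to 767 higher and 238 to 286 lower. Under each setting 0 probe sets called in both fits turned direction, and the median of probe sets with inbreds over 3 log2 apart stayed between 0.84 and 1.19. Of 49 called named probe sets, 15 kept their call under every log-scale setting in which they were tested (7 of them were not tested under the stricter filter): dzs18, his2b5, pdc2, pip2-5, abp4, MRP2, UMPS, HMT-2, tub6, saf1, o2, GAPC, eif7, CesA-4 and expA4. The linear scale in place of the log scale turned PLTP to -0.70 and calmodulin to -0.58. The cause of these changes was not tested.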
